A study of Rattus norvegicus with 8 samples.

Results

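The acid and alkaline phosphatases examined here were 6 named genes, Acpp, Acpt, Acp1, Acp2, Acp5 and Alpl, found on the array by their symbol. Of the 6, 5 had a probe, each of them 1 probe of the 22523 on the array, which carried 21557 distinct symbols, and no probe was found for Acp5 by symbol or by gene ID. The genes were chosen by their signals on these same arrays, with the stage difference already known, so their differences between stages are given as a description, with no p-value, and the word called says only on which side of the thresholds used for all probes a member fell. Total RNA came from enamel organs on the mandibular incisors of 4 male Wistar Hannover rats aged 4 weeks, with no treatment or altered genotype in the labels, and was hybridized to 8 arrays of the RatRef-12 BeadChip type. Each rat gave a secretory-stage sample, from the stretch of the incisor where enamel matrix is laid down, and a maturation-stage sample, from the stretch where that matrix is removed and the mineral hardens, so there were 4 arrays per stage. The layer that was collected is multicellular. It holds ameloblasts together with stratum intermedium or papillary layer cells and whatever vessel, immune, bone or dentine-side cells came away with it, so a signal belongs to the tissue and not to 1 cell type.

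Acid and alkaline phosphatases remove phosphate groups from proteins, lipids and small molecules, and they are named for the pH at which they work best. In mineralizing tissue the best known is the tissue-nonspecific alkaline phosphatase made from Alpl, which sits on the outer face of the cell membrane and breaks down pyrophosphate, an inhibitor of mineral growth, to free phosphate. Acpt encodes testicular acid phosphatase, now called Acp4, a membrane protein whose loss in people is known to give thin enamel, and Acpp encodes prostatic acid phosphatase, now called Acp3, which as a membrane enzyme can turn adenosine monophosphate into adenosine. Acp2 encodes the lysosomal acid phosphatase, Acp1 the small cytosolic enzyme that acts on phosphotyrosine in proteins, and Acp5 the tartrate-resistant acid phosphatase that marks osteoclasts.

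The promoter sequences of 3 of these genes are printed because they set the member that differed most between stages beside 2 that differed little. Each is the 250 bases before the transcription start in RefSeq's table for the GRCr8 assembly, 5′ to 3′ on the gene's strand, with capitals marking motif matches. The Acpt (Acp4) stretch lies at chr1:103881157-103881406 on the minus strand, the Alpl stretch at chr5:155289786-155290035 on the minus strand, and the Acp2 stretch at chr3:97631676-97631925 on the plus strand.
Acpt: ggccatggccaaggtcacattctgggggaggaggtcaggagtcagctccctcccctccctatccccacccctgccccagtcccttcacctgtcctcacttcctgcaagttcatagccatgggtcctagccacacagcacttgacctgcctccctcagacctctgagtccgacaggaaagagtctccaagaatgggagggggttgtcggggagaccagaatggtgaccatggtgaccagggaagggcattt
Alpl: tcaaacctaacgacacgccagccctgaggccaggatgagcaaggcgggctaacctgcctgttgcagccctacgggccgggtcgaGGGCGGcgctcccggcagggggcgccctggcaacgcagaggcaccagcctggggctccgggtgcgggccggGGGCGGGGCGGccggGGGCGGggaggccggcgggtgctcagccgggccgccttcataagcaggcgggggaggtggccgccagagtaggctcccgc
Acp2: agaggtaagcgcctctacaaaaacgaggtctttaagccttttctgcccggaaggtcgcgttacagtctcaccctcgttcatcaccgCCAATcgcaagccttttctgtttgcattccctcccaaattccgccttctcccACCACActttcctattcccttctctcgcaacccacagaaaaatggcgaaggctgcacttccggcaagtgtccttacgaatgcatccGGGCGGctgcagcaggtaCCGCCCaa
Both strands of each stretch were searched for 6 short motifs. These were the CCAAT box, spelled as it is named, a TATA box with the letters TATAAA, a GC box with the letters GGGCGG, a RUNX core with the letters TGTGGT, a PITX core with the letters TAATCC, and an AP-1 site with the letters TGANTCA. None of the 6 was found in the Acpt stretch, which was 59.6% G or C. The Alpl stretch was 76% G or C against a median of 51.2% over all 33469 promoters, and it held 4 GC boxes, starting 166, 95, 90 and 80 bases before the transcription start, the ones at 95 and 90 bases overlapping. The Acp2 stretch, 54% G or C, held a CCAAT box, 2 GC boxes, 1 of them on the opposite strand, and a RUNX core on the opposite strand. Over all promoters of this length 30.5% held a GC box, 34% a CCAAT box, 14.5% a RUNX core, 12.9% a TATA box, 6.34% an AP-1 site and 6.34% a PITX core. A match of this kind is a string of letters and no evidence of binding.

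The deposited signals of the 5 phosphatase probes were corrected for background and quantile-normalized, and levels are given as normalized log2 signal. A difference is maturation minus secretory on that scale, and a probe was called when its adjusted p in limma was below 0.05 and its difference at least 1.8-fold. All 8 arrays correlated more closely with arrays of their own stage (0.991 to 0.994 on average) than with those of the other (0.935 to 0.947), which bears on the labels. For replicates 2, 3 and 4 of the maturation stage, 1 label field (the source) says secretory, whereas title, description and tissue say maturation. The titles were used. The difference within rat 1, whose labels do not conflict, is given for each gene beside the difference over all 4 rats. In the deposited signals the maturation-stage arrays were brighter in sum, by a median of 1.25-fold, and detected 11164 to 11450 probes against 10667 to 10941.

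The acid phosphatase genes Acpt and Acpp were lower in maturation-stage enamel organs, by 17.9-fold and 15.3-fold after background correction and normalization, and Acp2, Acp1 and Alpl differed by at most 1.28-fold. All 5 probes were detected on all 8 arrays. Of the 5 probes 2 were called, both lower in maturation, where 7.75% of all 22523 probes were called in either direction, 3.15% lower and 4.6% higher. The stages did not overlap for 3 of the 5, against 27.7% of all probes. The same 2 members were called under every setting, where all probes were called at 7.77% with the rat as a block, 7.63% by the methods' test, 9.21% after median scaling and 13.3% at a threshold of 1.5-fold. Because the genes were picked with this contrast known, nothing is read from the share of members called. The median difference of the 5 probes was -0.22 and that of all probes -0.01. In RNA from a whole tissue, fewer cells of a type and less RNA per cell cannot be told apart, which holds for every difference given here.

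**Figure D1:**
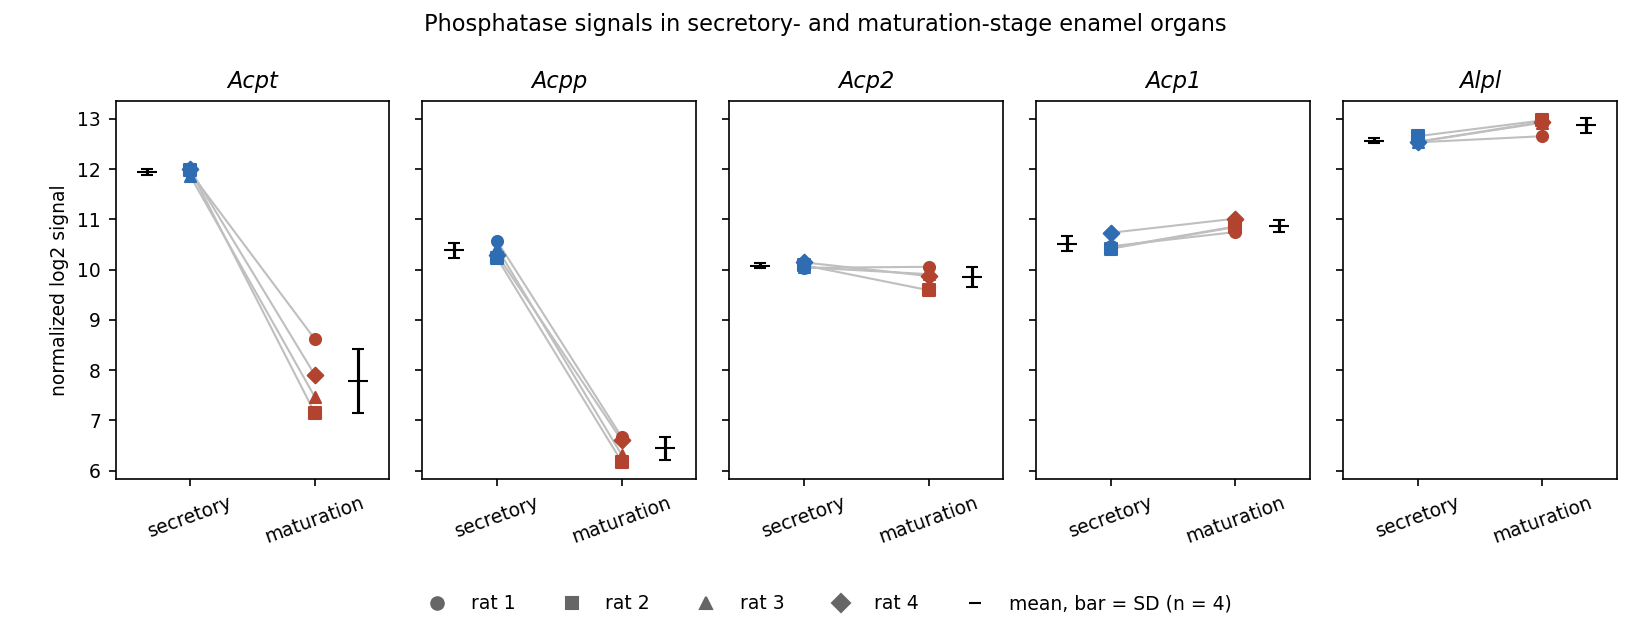
Normalized log2 signal (y axis) of the 5 phosphatase probes in secretory-stage (blue) and maturation-stage (red) enamel organs, 1 point per array, with grey lines joining the samples of 1 rat and black marks for the mean with its SD over 4 arrays. Acpt fell from a mean of 11.95 to 7.79 and Acpp from 10.38 to 6.44, while Acp2, Acp1 and Alpl stayed within 0.36 of their secretory means.

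Acpt (probe ILMN_1351102, placed on chromosome 1 by the array's annotation) showed the largest difference of the 5. In the secretory stage its normalized log2 signals were 11.94, 11.99, 11.87 and 11.99 in replicates 1 to 4, a range of only 0.13. In the maturation stage they were 8.62, 7.15, 7.47 and 7.91, a range of 1.47. The lowest secretory array lay 3.25 above the highest maturation array, so the stages did not overlap, and the maturation arrays were spread over more than 10 times the range of the secretory arrays. The means were 11.95 ± 0.0596 and 7.79 ± 0.636 (SD, n = 4), a difference of -4.16 with a standard error of 0.262, which is 17.9-fold. Only 15 of the 22523 probes had a more negative difference.

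Rat by rat, the Acpt difference was -3.32 in rat 1, -4.84 in rat 2, -4.40 in rat 3 and -4.09 in rat 4. All 4 rats showed the same direction, and rat 1, with the highest maturation signal, gave the smallest difference. Without maturation replicate 1 the difference was -4.46. As deposited, before any correction, the Acpt signals were 3456, 3623, 3346 and 3578 in the secretory stage and 609, 265, 277 and 376 in the maturation stage, a 9.17-fold difference of means. Each of these values rests on 40 to 57 beads with a standard error of 2.23% to 3.99% of the signal, an error within the array that leaves out differences between animals.

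Acpp (probe ILMN_1354676, chromosome 8) differed by nearly as much and with less spread. Its secretory signals were 10.57, 10.23, 10.43 and 10.30, and its maturation signals were 6.67, 6.18, 6.32 and 6.60. Every maturation array lay at least 3.56 below every secretory array. The means were 10.38 ± 0.150 and 6.44 ± 0.233 (SD, n = 4), a difference of -3.94 with a standard error of 0.121, or 15.3-fold, and 19 probes had a more negative difference. The differences within rats 1 to 4 were -3.90, -4.05, -4.11 and -3.69, so rat 1 gave a value close to that of the other rats.

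As deposited, the Acpp signals were 1329, 1120, 1260 and 1089 in the secretory stage and 230, 179, 174 and 209 in the maturation stage, each from 36 to 51 beads. The ratio of those means was 6.06-fold, against 15.3-fold after background correction and normalization. Without background correction but with quantile normalization the Acpp difference was -2.99, and that of Acpt was -3.68. How many fold Acpp fell therefore depends on how the background was treated, and its direction and its call did not change under any setting that was run.

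In the maturation stage Acpt and Acpp were highest in the same animals as 4 transcripts of secretory ameloblasts, the cells that make enamel matrix. Shares of the secretory mean were taken on the linear scale after normalization, with the offset of 16 added in processing subtracted. The Acpt share was 9.58% in maturation replicate 1, 3.20% in replicate 2, 4.10% in replicate 3 and 5.69% in replicate 4. The same shares for Acpp were 6.48%, 4.27%, 4.81% and 6.14%. For both genes the order from high to low was replicate 1, 4, 3 and 2.

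Enam, the gene of the matrix protein enamelin, kept 13.0%, 0.495%, 0.746% and 7.0% of its secretory mean in maturation replicates 1 to 4, in that same order from high to low. Mmp20, the matrix protease of the secretory stage, kept 9.25%, 3.81%, 2.64% and 5.38%, also highest in replicates 1 and 4. Amelx and Ambn, the amelogenin and ameloblastin genes, followed the order of Acpt too, but at 46.4% to 91.3% and 65.9% to 97.4%. Relative to its own level, Enam varied far more among the maturation arrays than either phosphatase, and Acpp and Ambn varied least. In maturation replicates 2 and 3 Enam was close to background, at log2 signals of 5.17 and 5.53, so the size of its spread is uncertain. Dspp, the remaining gene listed as a secretory ameloblast marker, is counted among the osteoblast and odontoblast markers too. It was undetected on all 4 maturation arrays, so its values there have no order. Of the 5 secretory ameloblast markers 3 (Enam, Mmp20 and Dspp) were called lower and none higher, and their summed normalized signal was 59836 to 64975 in the secretory stage and 30624 to 52918 in maturation. Most of that sum was Amelx and Ambn, neither of them called, and without them it was 5875 to 6904 and 69.1 to 641. Among other genes called lower in maturation the order differed. Pxylp1, a relative of the acid phosphatases, kept 43.6%, 45.1%, 48.1% and 49.3% in maturation replicates 1 to 4. Fam20a and Man2b1 were highest in maturation replicate 2, at log2 signals of 9.47 and 10.49. Entpd3 had the order of Acpt, at 7.17, 6.10, 6.13 and 6.62 in replicates 1 to 4. The part of remaining secretory-stage cells in the Acpt and Acpp signals of the maturation arrays was not tested.

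**Figure D2:**
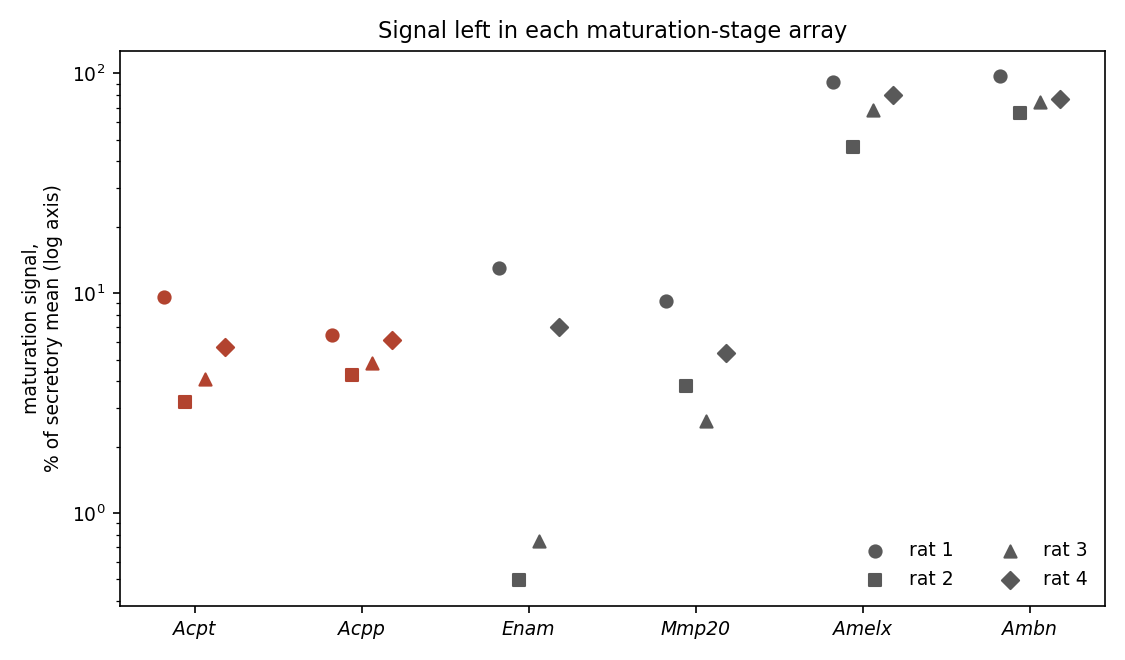
Signal on each maturation-stage array as a percent of the gene's mean over the 4 secretory arrays (log y axis), for Acpt and Acpp (red) and for 4 genes of secretory ameloblasts (grey), 1 marker shape per rat. The offset of 16 was subtracted before the percent was taken. Rats 1 and 4 hold the highest points of Acpt, Acpp, Enam and Mmp20; Acpt ranges from 3.20% to 9.58% and Enam from 0.495% to 13.0%.

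Acp2, the lysosomal acid phosphatase (probe ILMN_1374963, chromosome 3), had secretory signals of 10.04, 10.09, 10.05 and 10.15 and maturation signals of 10.06, 9.59, 9.91 and 9.87. The stages overlapped, since maturation replicate 1 lay inside the secretory range. The means were 10.08 ± 0.0491 and 9.86 ± 0.195 (SD, n = 4), a difference of -0.22 with a standard error of 0.0936, and the probe was not called. Within rats the difference was 0.02, -0.50, -0.14 and -0.27, with rat 1 apart from the others in sign. The direction was not settled either by the scaling, for Acp2 was 0.09 higher in maturation after median scaling and 0.29 higher with no normalization between arrays, and its deposited signals (937 to 1016 secretory, 1008 to 1485 maturation) had a maturation mean 1.22-fold above the secretory mean.

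Acp1, the cytosolic phosphotyrosine phosphatase (probe ILMN_1361506, chromosome 6), was measured at 10.47, 10.42, 10.43 and 10.73 in the secretory stage and at 10.75, 10.85, 10.86 and 11.02 in maturation. The stages did not overlap, but only by 0.0147, because secretory replicate 4 stood well above the other secretory arrays. The means were 10.51 ± 0.149 and 10.87 ± 0.110 (SD, n = 4), and the difference was 0.36 with a standard error of 0.0884, or 1.28-fold, short of the 1.8-fold that a call needs. Rats 1 to 4 gave 0.28, 0.43, 0.43 and 0.28, all in the same direction. Rat 4 had the highest Acp1 signal in both stages.

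Alpl, the tissue-nonspecific alkaline phosphatase (probe ILMN_1372113, chromosome 5), had secretory signals of 12.53, 12.66, 12.54 and 12.55 and maturation signals of 12.66, 12.97, 12.92 and 12.94. Maturation replicate 1 and secretory replicate 2 had the same normalized value, so the stages met at that point, and the other 3 maturation arrays lay above every secretory array. The means were 12.57 ± 0.0575 and 12.87 ± 0.146 (SD, n = 4), a difference of 0.30 with a standard error of 0.0789, or 1.23-fold, and the probe was not called. The differences within rats were 0.12, 0.31, 0.38 and 0.39, smallest in rat 1. As deposited the Alpl signals were 5352, 5663, 5243 and 5196 in the secretory stage and 8122, 9065, 7704 and 8911 in maturation, 1.58-fold higher in the mean on arrays that were 1.25-fold brighter in sum.

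Alpl is also made by bone and dentine-forming cells, so its values were set beside their markers. Among 11 osteoblast and odontoblast markers on the array 1 was called higher in maturation (Ibsp) and 1 lower (Dspp), Sp7 and Sost were undetected, and their summed normalized signal was 30027 to 48249 in the secretory stage and 40439 to 43832 in maturation. Most of that sum was Col1a2, Bglap and Col1a1, none of them called, and without them it was 2051 to 3643 and 2468 to 3274. Dmp1, a matrix gene of dentine and bone, was at 9.33 and 9.37 in secretory replicates 1 and 2 and at 11.30 and 11.16 in replicates 3 and 4. Bglap, the osteocalcin gene, was at 11.11, 13.03, 13.73 and 13.98 on secretory replicates 1 to 4, and Col1a1, a collagen gene, at 12.10, 12.58, 12.52 and 12.17. These markers thus differed in pattern among the secretory arrays. Alpl, Col1a1 and Ibsp (6.97) were highest in replicate 2, Dspp (10.68) in replicate 1, and Dmp1 and Col1a2 (14.62) in replicate 3. Bglap, Phex (6.61) and Ifitm5 (6.49) were highest in replicate 4. The part of bone and dentine cells in the Alpl signal was not tested. Of 6 markers of the stratum intermedium and papillary layer, the cell layers next to the ameloblasts in which alkaline phosphatase is best known, 2 were called higher in maturation (Slc4a4 and Epas1) and none lower, with summed signals of 21838 to 23429 in the secretory stage and 24924 to 25506 in maturation. Nearly all of that sum was Gja1, a gap junction gene that was not called, and without it the sums were 589 to 613 and 928 to 1170. Notch1 and Jag2, also of this list, differed by -0.36 and -0.35 and were not called. Whether the share of those cells has a part in the small Alpl difference was not tested.

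**Figure D3:**
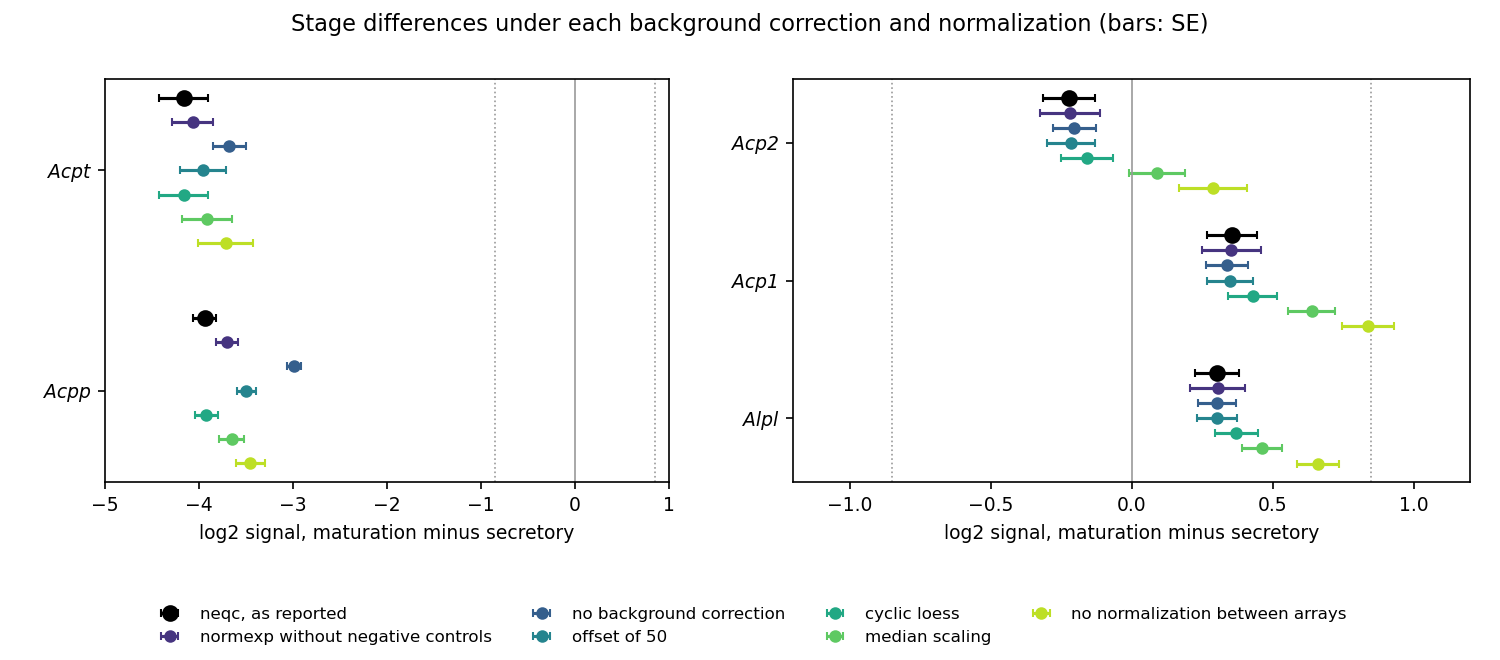
Difference in log2 signal, maturation minus secretory (x axis), of the 5 phosphatase probes under the reported processing (black) and 6 other treatments of background and normalization (colours), with bars for the standard error and dotted lines at 1.8-fold. Acpt stays between -4.16 and -3.68 and Acpp between -3.94 and -2.99, Acp2 crosses 0, and Acp1 and Alpl shift upwards to 0.84 and 0.66 with no normalization between arrays.

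The differences of the 3 phosphatases near 0 depended on the scaling, as did the median of detected probes. The median difference of probes with a detected signal on 4 or more arrays was -0.05 after quantile normalization, 0.18 after median scaling and 0.38 with no normalization between arrays. Acp1 was 0.36, 0.64 and 0.84 under these scalings, and Alpl 0.30, 0.46 and 0.66, so both stayed above the median of detected probes under each of them. Acp2, at -0.22, 0.09 and 0.29, stayed below the median of detected probes. The median of all probes was -0.01, -0.07 and 0.13, and Acp2 lay above that one after median scaling and with no normalization. Of all called probes 59.3% were higher in maturation after quantile normalization, 77.6% after median scaling and 87.2% with none.

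Acp5 gave no value on this array. Of 9 osteoclast markers that had a probe, 5 were called higher in maturation and none lower, among them Mmp9, a matrix metalloproteinase, with a difference of 3.0, and Atp6v0d2, a proton pump subunit, with a difference of 2.88. Calcr and Tnfrsf11a, the receptors for calcitonin and RANKL, were undetected on all 8 arrays. The summed normalized signal of these markers was 24810 to 30454 in maturation and 6590 to 9223 in the secretory stage. Most of that came from Ctsk and Car2, without which it was 1303 to 2377 and 148 to 310. Of 10 macrophage markers 6 were called higher and none lower, with sums of 9753 to 12569 against 3652 to 4421. Lcp1 is counted among those called higher by the brighter of its 2 probes, the other not passing the same call. Of 8 neutrophil markers 1 was called higher, and of 6 endothelial markers 1. Of 4 maturation ameloblast markers 3 were called higher, with sums of 29123 to 30836 against 5916 to 8347, and Slc26a4 was undetected. Ctsk is counted in this list and in the osteoclast list, and without it the maturation ameloblast sums were 13489 to 15916 against 135 to 219. The part of these cells in the phosphatase differences was not tested.

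The genes whose signals ran most like Acpt over the 8 arrays were Arhgap9 (Pearson r 0.998), Tcp11 (0.998) and Satb1 (0.998), among 11232 other probes compared. For Acpp they were Prkcz (0.9998), Rflnb (0.999) and Tesc (0.999). These correlations describe arrays that fall into 2 stages, so any gene with a clear fall scores high, and 937 probes correlated above 0.95 with Acpt and 1018 with Acpp. The genes most like Alpl, Slmap (0.977), LOC497747 (0.977) and Akr1c12 (0.975), matched less closely, and 67 probes were above 0.95. Arhgap9 differed by -3.70 between stages, close to the Acpt difference of -4.16, and Tcp11 was detected on only 2 of the 4 maturation arrays, whereas Prkcz, an atypical protein kinase C, differed by -1.44, far less than Acpp at -3.94.

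Among the other acid and alkaline phosphatases and related phosphatases, 11 genes had a probe, of which 1 was called higher and 2 lower, with a median difference of -0.29. None of them differed by as much as Acpt or Acpp. Pxylp1, a relative of the histidine acid phosphatases that removes phosphate from xylose during proteoglycan assembly, fell by 1.10 on the log2 scale (SE 0.0595, adjusted p = 1.01e-06 in limma), from 12.97 ± 0.0396 to 11.87 ± 0.0810 (SD, n = 4). Pgp, phosphoglycolate phosphatase, fell by 1.27 (adjusted p = 1.80e-05 in limma), and G6pc3, a glucose-6-phosphatase of most tissues, rose by 1.30 (adjusted p = 8.76e-05 in limma). Pxylp1 and Pgp lost their calls with no normalization between arrays, at -0.75 and -0.75, and Pgp also without background correction, at -0.81. The intestinal alkaline phosphatases Alpi and Alpi2 and the mineralizing phosphatase Phospho1 were undetected on all 8 arrays, which leaves Alpl and, weakly, Alpg (difference -0.36, not called, detected on 2 maturation arrays and 4 secretory arrays) as the alkaline phosphatases with a signal here.

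Alpl works among genes that make, break down or carry pyrophosphate and phosphate, of which 16 were measured, 4 called higher and 2 called lower, with a median of -0.04. Enpp3 is counted among those called higher by the brighter of its 2 probes, the other not passing the same call. Slc34a2, a sodium-phosphate cotransporter, rose by 6.0 (adjusted p = 6.21e-09 in limma). Its secretory signal was close to background, at a mean of 5.16 and detected on 3 of 4 arrays, so the size of its rise is uncertain. Enpp1, which makes the pyrophosphate that Alpl breaks down, rose by 2.08 (adjusted p = 1.44e-06 in limma). Ankh, which carries pyrophosphate or ATP out of cells, differed by -0.55 and was not called. Ppa1, a cytosolic pyrophosphatase, fell by 1.28 (adjusted p = 5.96e-05) and Nt5e, the ecto-5′-nucleotidase that like Acpp acts on adenosine monophosphate, by 1.17 (adjusted p = 2.76e-05). Nt5e lost its call after median scaling, at -0.84, and with no normalization between arrays, at -0.64, and Ppa1 under the latter, at -0.83.

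The adenosine genes that bear on Acpp were 20 in number, of which 5 were called higher and 2 lower, with a median of 0.02. Without background correction 2 were called higher and 2 lower, and after median scaling 6 higher and 1 lower. Enpp3, whose 2 probes differed in call, is counted among the genes called higher in this list too. The adenosine receptor gene Adora2b rose by 2.40 (adjusted p = 2.92e-06 in limma) and Entpd3, an enzyme that removes phosphate from ATP outside the cell, fell by 2.30 (adjusted p = 8.50e-05). Acpp and Nt5e, whose enzymes both act on adenosine monophosphate, were both lower in maturation.

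Of 10 secreted phosphoproteins and their kinases, 3 were called higher and 4 lower, with a median of -0.45. Spp1 (osteopontin) rose by 3.62 and Ibsp (bone sialoprotein) by 1.95 (adjusted p = 3.18e-06 and 1.27e-05 in limma). Enam fell by 4.98 (SE 0.786, adjusted p = 9.82e-04), with a difference of -5.68 without maturation replicate 1 and -4.38 without replicate 2, and Dspp, undetected on the 4 maturation arrays, was at least 34-fold lower. Fam20c, the kinase that phosphorylates such proteins as they are secreted, and Fam20a, its pseudokinase partner, were also called lower, with differences of -1.33 and -1.80.

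Beside Acp2, 34 genes of lysosomal hydrolases, membrane proteins and mannose 6-phosphate sorting were measured, 4 called higher and 1 lower, with a median of 0.31 against the Acp2 difference of -0.22. The count depended on scaling and threshold, with 9 higher and 1 lower after median scaling, 13 and 1 with no normalization between arrays, and 17 and 4 by an adjusted p below 0.05 at any fold. Lamp1, a lysosomal membrane protein, rose by 1.69 and Neu1, a sialidase, by 1.57, and Man2b1, a mannosidase, fell by 1.32 (adjusted p = 1.22e-04, 1.07e-06 and 1.07e-06 in limma). Among 17 cytosolic protein tyrosine phosphatases, the class to which Acp1 is nearest in function, 4 were called higher and 1 lower, with a median of 0.10, but 1 higher and 0 lower without background correction and 2 higher and 0 lower with an offset of 50. Ptpn13 rose by 1.15 on the brighter of its 2 probes, the other not passing the same call, and Ptpn1 rose by 1.10 (adjusted p = 2.10e-05 and 1.69e-04 in limma), while Ptpn3, undetected in maturation, was at least 1.97-fold lower. Without background correction neither Ptpn1, at 0.84, nor Ptpn3, at -0.45, was called, and Ptpn3 was not called with an offset of 50 either, at -0.68. Acp1, at 0.36, lay above that median and below the genes called higher.

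**Figure D4:**
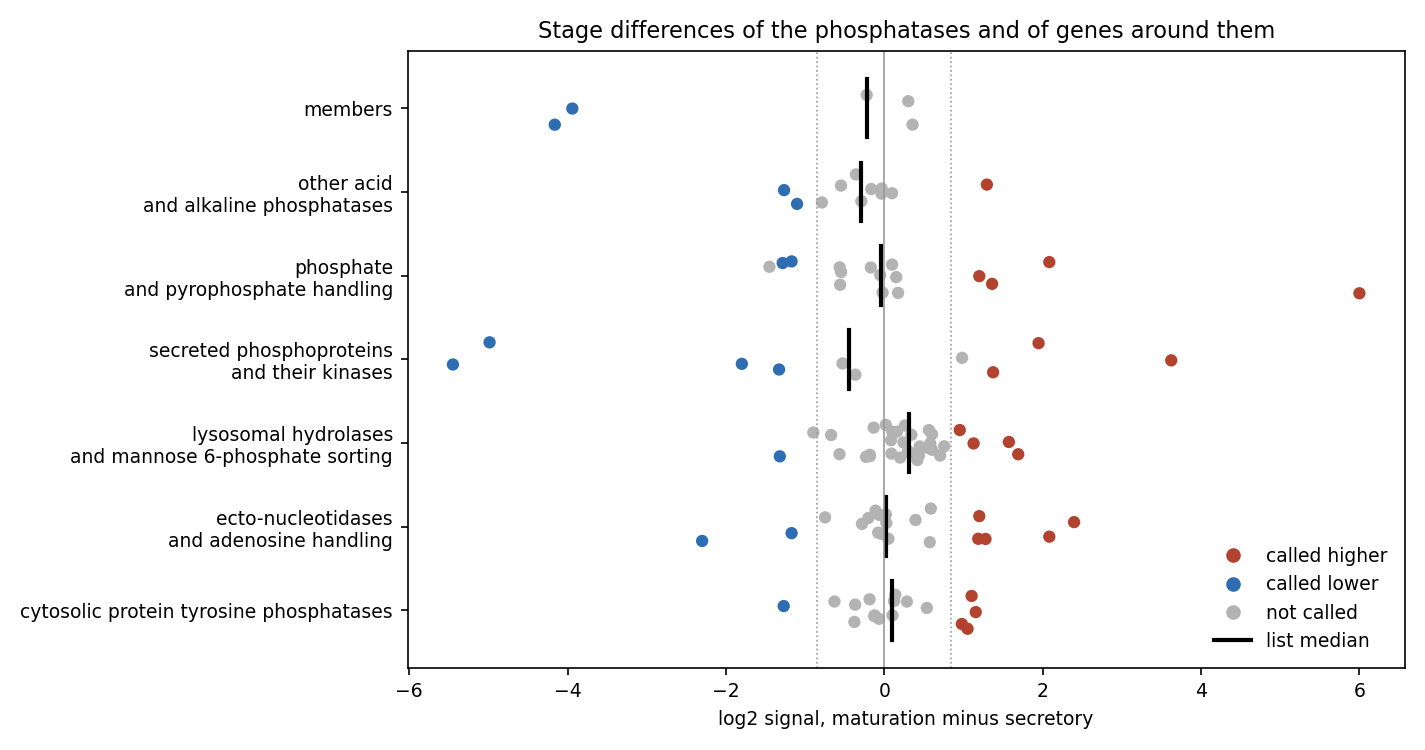
Difference in log2 signal, maturation minus secretory (x axis), of the 5 phosphatases (top row, named members) and of the genes in 6 lists around them, 1 point per gene, red for genes called higher, blue for genes called lower and grey for genes not called, with a black line at each median and dotted lines at 1.8-fold. Acpt and Acpp lie near -4, beyond every gene of the other phosphatase list, and Acp2, Acp1 and Alpl lie within 0.36 of 0.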

How the data were processed

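Samples were grouped by their titles. The file deposited by the authors holds, per probe and array, the mean bead intensity, neither background-corrected nor normalized between arrays. Also deposited were its detection p-value, the count of beads and the bead signal's standard error. The bead summary software is not given in the sources used here.

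The signals were processed in R 4.3.3 with limma 3.58.1. Background correction, an offset of 16, quantile normalization and the log2 step were done by neqc, which estimated the negative controls from the detection p-values. lmFit and eBayes then tested all 22523 probes, without a filter and without a block, with Benjamini-Hochberg adjustment. Calls needed an adjusted p below 0.05 and a fold of at least 1.8. Summed signals and shares of a mean are on the linear scale with the offset subtracted, while log2 differences include it. A probe was detected where its detection p was below 0.05, and a fold against a stage with no detected array is a lower bound. No member had more than 1 probe. Other genes were read by their brightest probe and renamed by gene ID through the GRCr8 gene table, which matched 17430 probes.

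The members and lists were chosen with earlier results of these data known. The report leaves out 1 marker gene of the stratum intermedium and papillary layer. Named were all members and, per list, up to 2 called genes that rose most and 2 that fell most. Each of these listed genes was detected on all 4 arrays of a stage. Also named were the 3 genes most correlated with Acpt, Acpp and Alpl, and marker genes where they bear on a member. Alpg, Alpi, Alpi2, Ankh, Enpp3, Phospho1, Fam20a and Fam20c were added after their values were seen. Promoters came from RefSeq; Acpp had no entry in the promoter table.

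Each rat gave both samples, and the replicate numbers were taken to pair them. Samples of the same number deviated together from their stage means (r = 0.195, 0.129, 0.219 and 0.234 over 11233 probes). Samples of different numbers gave -0.0755 to -0.0416 on average, values that centring on the stage means pushes below 0 when the matching ones lie above. Whether shared processing had a part in this was not tested. Alternatives covered background, offset, normalization, filter, the methods' t-test, a rat block, the fold threshold and leaving out each array. The fit was tested on simulated data. Precision is limited by the 4 arrays per stage.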

Additional observations from a re-analysis of the deposited data

Results flagged for a closer look

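In 10 of 63 sets of 4 arrays, 1 array lay far from the other 3 by Dixon's criterion, which chance alone gives in about 1 in 20 sets, or 3.15 of 63. Among the phosphatases these were Acp1 in secretory replicate 4, at 10.73 with the others at 10.42 to 10.47, Alpl in maturation replicate 1, at 12.66 with the others at 12.92 to 12.97, and Alpl in secretory replicate 2, at 12.66 with the others at 12.53 to 12.55. Without those arrays the Acp1 difference was 0.43, and the Alpl difference was 0.38 without the maturation array and 0.33 without the secretory array.

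Among genes that are no members, Enpp1 was low in secretory replicate 1 (9.96, others 10.20 to 10.22), as was Ibsp (6.38, others 6.92 to 6.97). Nt5e was low in secretory replicate 3 (9.71, others 9.95 to 9.99). In secretory replicate 4 Ptpn1 was low (7.34, others 7.80 to 7.88) and Ptpn3 high (6.24, others 5.82 to 5.83). Adora2b was high in maturation replicate 4 (9.91, others 9.35 to 9.44) and Tesc in maturation replicate 1 (9.87, others 9.60 to 9.64).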

How the results depend on the processing

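The calls of Acpt and Acpp, and no others among the 5 phosphatase probes, were made under every setting that was run, with the rat as a block included. When single arrays were left out, the difference ranged from -4.46 to -3.96 for Acpt, -4.02 to -3.85 for Acpp, -0.29 to -0.13 for Acp2, 0.31 to 0.43 for Acp1 and 0.27 to 0.38 for Alpl. Acp2 turned direction, to 0.0894 after median scaling and to 0.288 with no normalization between arrays, a setting chosen after seeing the data.

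Counts of called genes moved by more than 1.5 times in 4 lists, and otherwise lay between 4 and 7 (6 as reported) for phosphate and pyrophosphate handling and between 7 and 8 (7 as reported) for the secreted phosphoproteins and their kinases. With no normalization between arrays 1 of the other acid and alkaline phosphatases was called, against 3. Called lysosomal genes numbered 5, but 10 after median scaling, 14 with no normalization between arrays, 10 at a threshold of 1.5-fold, and 4 to 6 with an array left out. Called genes of adenosine handling numbered 7, but 4 without background correction, and called cytosolic tyrosine phosphatases 5, but 3 with normexp without negative controls, 1 without background correction and 2 with an offset of 50. Over all probes 1745 were called, 923 without background correction, 2600 with no normalization between arrays and 2997 at 1.5-fold.

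The pairing of samples by rat, with 1 array per stage from each, cannot move a difference, and it bears only on the error. With the block 1750 probes were called against 1745, and no call changed among the members and the 28 list and correlated genes refitted under each setting. Of those 28 genes, 8 changed their call under at least 1 setting, Pgp, Pxylp1, Ppa1, Nt5e, Ptpn1, Ptpn3 and Akr1c12 losing it and Slmap gaining it, and none turned direction. The cause of these shifts was not tested. Acpp on the maturation arrays lies nearest to background among the members, and its fold moves most with the background correction.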
